A study of Mus musculus with 12 samples.

Results

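The genes of the sodium potassium pump that encode its β subunits and its regulator phospholemman, rather than its catalytic subunit, were measured in sorted cells of the ventricle. They were chosen by name, as *Atp1b1*, *Atp1b2*, *Atp1b3* and *Fxyd1*, and matched to their Ensembl identifiers, which gave 4 members of the 48526 genes counted. All 4 had a mean normalized count above 5 in every comparison and were therefore tested in each.

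The pump is an enzyme of the cell membrane that spends ATP to move sodium out of the cell and potassium in. Its catalytic α subunit needs a β subunit, a glycoprotein encoded by the *Atp1b* genes, to fold, reach the membrane and bind potassium properly, and β subunits on neighboring cells can also bind each other. Phospholemman, the product of *Fxyd1*, is a small membrane protein of the FXYD family that holds back the pump of cardiomyocytes until it is phosphorylated. In heart muscle the pump sets the sodium gradient used for excitation and for calcium removal.

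Purkinje cells (PCs), the fast-conducting cardiomyocytes of the ventricular conduction system, and working ventricular myocytes (VMs) came from adult male *Ncam-1* WT and *Ncam-1* KO mice. All mice, WT and KO alike, carried the *Cntn2*-EGFP reporter, a bacterial artificial chromosome transgene in which GFP follows the regulatory sequence of *Cntn2*, a gene of PCs. Dissociated cells were stained with 50 nM TMRM, a mitochondrial dye that marks cardiomyocytes red, and sorted as red and green for PCs or red without green for VMs. RNA of the sorted cells was amplified and sequenced in 12 libraries, with 3 each of WT PC, KO PC, WT VM and KO VM. The KO was in every cell of the body, not only in cardiomyocytes, and had been kept on C57BL/6 while the reporter came from CD1. The labels do not say whether each library came from its own heart, so the spread between replicates may be partly technical.

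Libraries held between 13883427 and 42505705 counts on genes, of which between 1532393 and 6761356 lay outside the mitochondrial genome. The sort left cardiomyocyte markers high in all libraries, with summed normalized counts of 8 genes from 187400 to 249200. *Ncam1*, the targeted gene, had 83, 34 and 116 raw counts in WT PCs and 0, 1 and 1 in KO PCs. The WT VM libraries held 6, 0 and 9 counts of it and the KO VM libraries 0 each, which allows up to 3, so in VMs it was near the limit of detection in both genotypes. The second WT PC library stood apart, with 63.9% of its read pairs not aligned against 18.8% to 24.7% in the others. The third KO PC library stood apart from the other KO PCs, with 499 normalized counts of *Cntn2* against 42.6 and 54.3. Summed markers of leukocytes, endothelium, fibroblasts and smooth muscle were higher in every PC than in every VM library. Summed leukocyte markers ran from 252 to 660 in PCs and from 12.5 to 156 in VMs, and summed endothelial markers from 845 to 2817 and from 109 to 791.

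*Atp1b1*, which encodes the β1 subunit, had the highest level of the members in every library, by normalized count and per kilobase of merged exon. Its gene lies on the minus strand of chromosome 1 (GRCm38, 164437109 to 164458355), and its exons overlap those of *Nme7* on the opposite strand. The strand setting of the counting was not stated. *Nme7* itself had at most 15.3 normalized counts, which cannot show whether read pairs on the shared exons were left uncounted for both genes. Per kilobase of merged exon, the mean normalized count over the 12 libraries was 459 for *Atp1b1*, 204 for *Fxyd1*, 65.4 for *Atp1b3* and 6.93 for *Atp1b2*. That order held in all 12 libraries. Merged exons take in all annotated exons of a gene, so per-kilobase levels of different genes do not give their numbers of transcript molecules. Among genes with a mean normalized count above 5, the per-kilobase level of *Atp1b1* was at percentile 97.8, that of *Fxyd1* at 95.1, that of *Atp1b3* at 85.6 and that of *Atp1b2* at 34.6.

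By this per-kilobase measure the β subunit transcripts were mostly *Atp1b1* in both cell types and both genotypes. Of the summed per-kilobase level of the 3 β genes, *Atp1b1* made up 88.0% ± 4.87 (SD, n = 3) in WT PCs, 83.6% ± 4.99 in KO PCs, 86.9% ± 1.29 in WT VMs and 86.5% ± 0.714 in KO VMs. *Atp1b3* made up most of the rest, with group means from 10.4% to 14.9%. The share of *Atp1b2* was small throughout, from 0.811% to 2.27% over single libraries. PC libraries varied more than VM libraries in this make-up, with the *Atp1b3* share running from 6.23% in the second WT PC library to 20.2% in the first KO PC library.

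**Figure D1:**
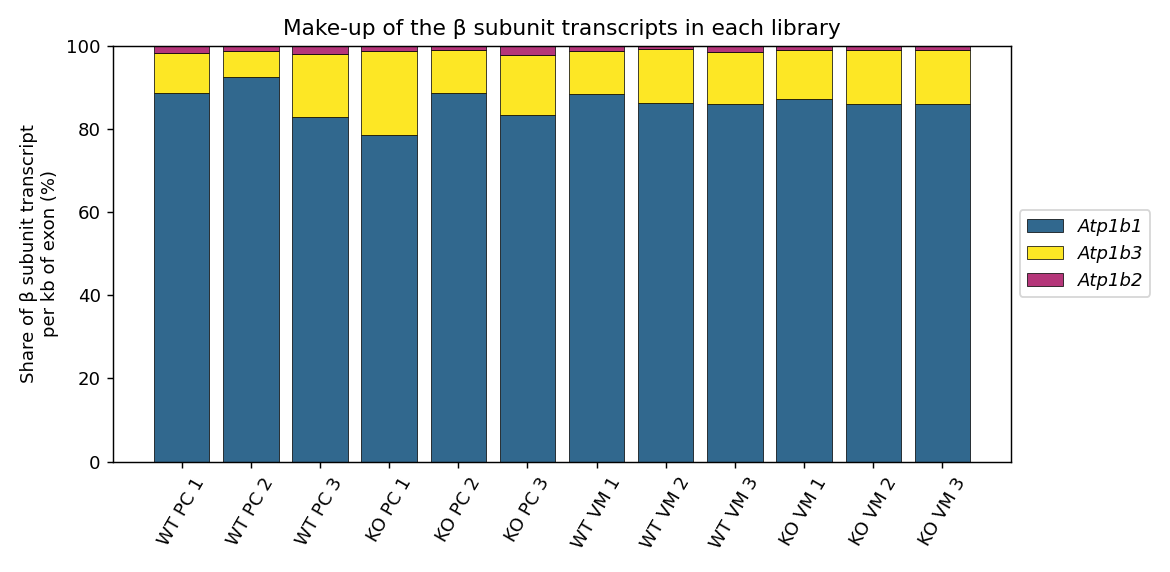
Share of each β subunit gene in the summed per-kilobase level of *Atp1b1*, *Atp1b3* and *Atp1b2*, in percent, with 1 bar per library. *Atp1b1* takes between 78.6% and 92.5% of every bar, and *Atp1b2* is the thin band at the top, at most 2.27%.

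Normalized counts of *Atp1b1* were 1635, 1853 and 1298 in the 3 WT PC libraries and 1228, 1323 and 1392 in the KO PC libraries. WT VMs had 1383, 1250 and 1256, and KO VMs 1693, 1286 and 1382. The groups overlapped in each comparison, and the whole range from lowest to highest library was 1.51-fold. By group mean the order was WT PC (1595 ± 280, SD, n = 3), KO VM (1454 ± 213), KO PC (1314 ± 82.2) and WT VM (1296 ± 75.0), and no group differed from its neighbor in that order by more than the larger of their SDs. WT PC and WT VM, at the ends of that order, differed by slightly more than the larger of theirs.

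*Atp1b2* encodes the β2 subunit, known also as an adhesion molecule of glia, and lies on the minus strand of chromosome 11 (69599736 to 69605942). It was near the lower end of what these libraries could measure, with 12 to 87 raw counts per library. Its normalized counts were 41.8, 34.4 and 40.1 in WT PCs, 25.2, 20.9 and 50.1 in KO PCs, 24.8, 15.6 and 26.1 in WT VMs, and 23.4, 17.0 and 20.4 in KO VMs. All 3 WT PC libraries lay above every VM library. The KO PCs were split, since the third library was the highest of all 12 and the other 2 lay among the VMs. Counting error alone was wide, and the exact 95% Poisson interval reached from 38.9 to 63.5 for the third KO PC library and from 11.7 to 34.4 for the second. Such intervals cover counting error only, as reads without molecular identifiers are not independent molecules. The order of group means was WT PC (38.8 ± 3.88, SD, n = 3), KO PC (32.1 ± 15.8), WT VM (22.2 ± 5.74) and KO VM (20.3 ± 3.20). Neighbors in it again differed by less than the larger of their SDs, while WT PC and WT VM, which are not neighbors, differed by more.

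*Atp1b3*, the gene of the β3 subunit, lies on the minus strand of chromosome 9 (96332655 to 96364442), the chromosome of *Ncam1*, at a distance of 46.5 Mb. Normalized counts were 138, 96.7 and 185 in WT PCs and 244, 120 and 184 in KO PCs. They were 127, 144 and 144 in WT VMs and 178, 153 and 161 in KO VMs. Every KO VM library lay above every WT VM library, while the PC groups overlapped widely. The PC groups spread about their means by a coefficient of variation of 31.7% in WT and 34.1% in KO, against 7.13% and 7.75% in the VM groups. For the VMs that spread was no wider than the mean counting error of 8.34% and 9.30%. The order of group means was KO PC (183 ± 62.2, SD, n = 3), KO VM (164 ± 12.7), WT PC (140 ± 44.3) and WT VM (139 ± 9.87), with each step smaller than the larger SD. KO VM and WT VM, which are not neighbors in it, differed by more than the larger of their SDs.

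*Fxyd1*, on the minus strand of chromosome 7 (31051678 to 31057199), had normalized counts of 520, 299 and 459 in WT PCs and 525, 419 and 661 in KO PCs. In WT VMs it had 381, 386 and 358, and in KO VMs 611, 343 and 394. The groups overlapped in each comparison. The lowest library was the second WT PC, which also had the lowest *Atp1b3* and the highest *Atp1b1*. Group means followed the order KO PC (535 ± 122, SD, n = 3), KO VM (449 ± 143), WT PC (426 ± 114) and WT VM (375 ± 15.1), and no step in it exceeded the larger SD.

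**Figure D2:**
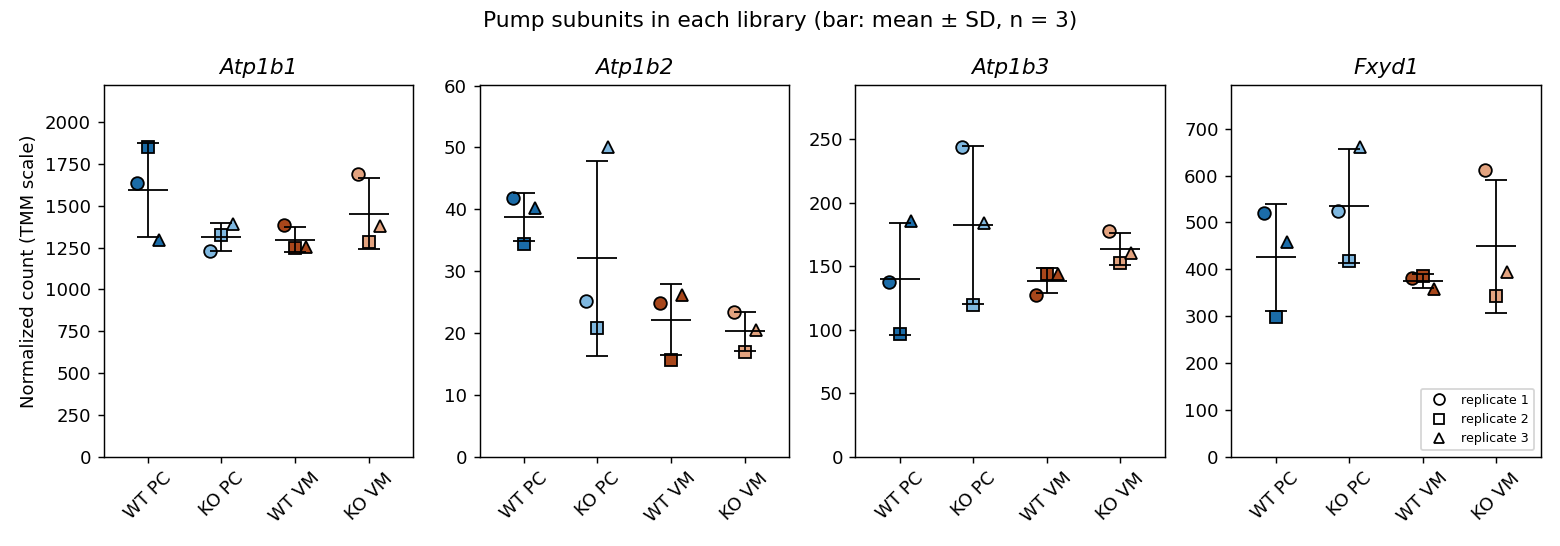
Normalized counts (linear axes from 0) of the 4 members in each library, by group, with the mean and SD of 3 libraries. The 3 WT PC points for *Atp1b2* (34.4 to 41.8) lie above all VM points (15.6 to 26.1), and the KO VM points for *Atp1b3* (153 to 178) lie above the WT VM points (127 to 144).

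The first comparison asked which genes differ between PCs and VMs. No member passed the quasi-likelihood test of edgeR after Benjamini-Hochberg adjustment (adjusted p under 0.05) in WT, where 0.108% of 12035 genes did, or in KO, where 0.863% of 10887 genes did. Averaged over both genotypes no member passed either, against 1.48% of 11533 genes, and DESeq2's Wald test also called 0 of the 4 in each of these comparisons. At an unadjusted p under 0.05 the count was 0 of 4 in WT (6.31% of all genes), 0 of 4 in KO (9.72%) and 1 of 4 over both genotypes (11.4%). In WT 1 of the 4 members had groups that did not overlap, against 13.7% of all genes, and in KO 0 of 4, against 15.6%.

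The member with that unadjusted p was *Atp1b2*, with a level in PCs that was 1.68-fold that in VMs over both genotypes. On the log2 scale the difference was 0.75 ± 0.32 (SE), with a 95% interval from 1.06-fold to 2.68-fold (edgeR unadjusted p = 0.0303, adjusted p = 0.357). The two-sided exact permutation test over 400 relabellings of the libraries within genotypes gave p = 0.01, where the smallest p it can give is 0.005. In WT alone the log2 difference was 0.78 ± 0.46 and in KO alone 0.70 ± 0.46. The estimate leaned on 1 library: without the third KO PC library it was 0.47 (edgeR unadjusted p = 0.159), and within KO it fell to 0.18. Without the second WT PC library it was 0.79.

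The summed level of 9 PC markers was 461, 395 and 1846 in the KO PC libraries and 1191, 2629 and 3779 in the WT PC libraries, against 108 to 167 in VMs. *Atp1b2* had the same order as these sums among the KO PC libraries but not among the WT PC libraries, where the first had the lowest marker sum and the highest *Atp1b2* level. In bulk samples such as these, fewer cells of a type and less RNA per cell cannot be told apart. Fibroblast, endothelial, smooth muscle and leukocyte markers were also higher in PCs, and the 6, 7, 7 and 4 genes of these lists tested over both genotypes all had estimates above 0. Their part in the *Atp1b2* difference was not tested. The glial markers *Sox10* and *Gfap* had no counts in any library, which allows up to 3 in each.

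For the other members the estimates between cell types were smaller than for *Atp1b2*, with intervals that included no change but were too wide to show that none existed. Over both genotypes *Atp1b1* in PCs was 1.06-fold its level in VMs (95% interval 0.880 to 1.26), *Atp1b3* 1.07-fold (0.795 to 1.43) and *Fxyd1* 1.17-fold (0.896 to 1.52). For *Atp1b1* the log2 difference was 0.26 ± 0.20 in WT and -0.14 ± 0.14 in KO, and for *Fxyd1* it was 0.16 ± 0.26 and 0.26 ± 0.21. The *Atp1b3* estimate was 0.15 ± 0.24 in KO, while in WT it was near 0 with an SE of 0.31 and changed sign with the processing.

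**Figure D3:**
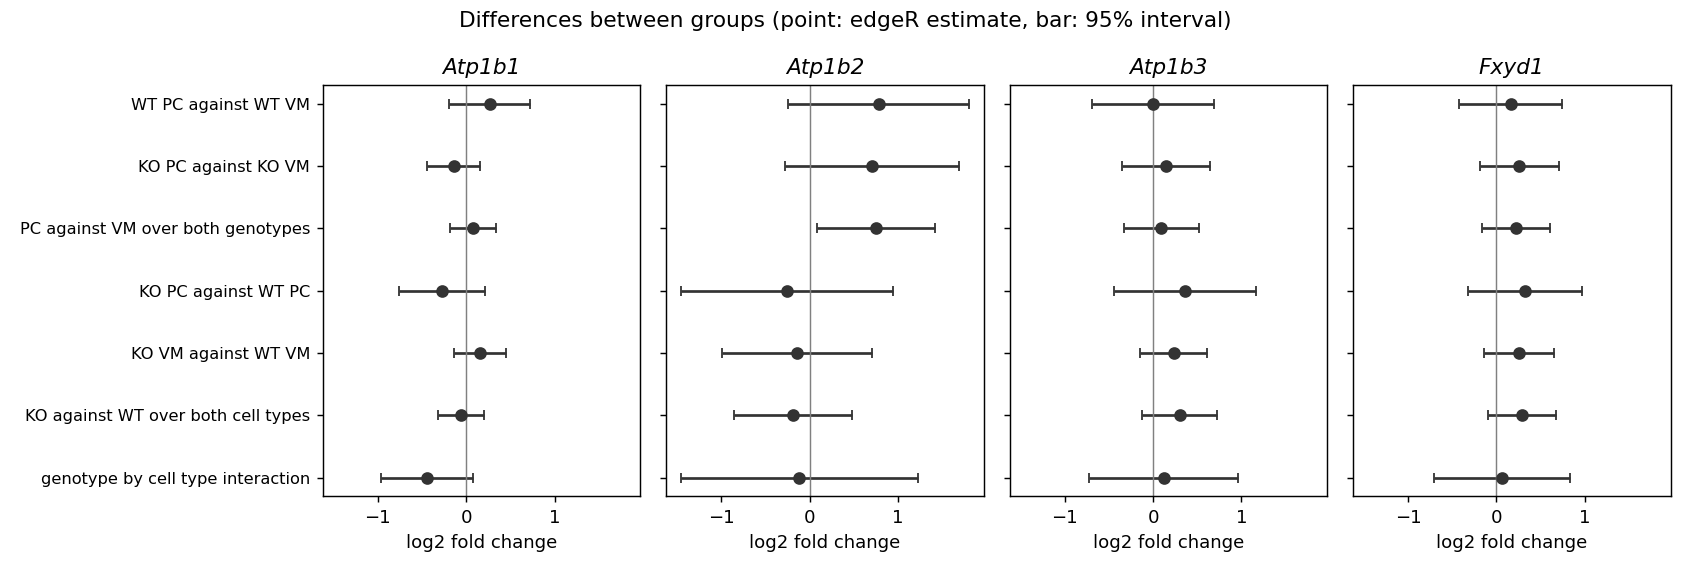
Log2 fold changes of the 4 members in 7 comparisons (points, edgeR estimates) with 95% intervals (bars), PC over VM or KO over WT. The interval for *Atp1b2* between PCs and VMs over both genotypes (0.08 to 1.42) is the 1 interval of the plot that does not contain 0.

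Loss of *Ncam-1* was addressed by KO against WT within each cell type. In PCs no member passed the adjusted threshold, nor did any of 12093 genes (0%) in edgeR's test, and at an unadjusted p under 0.05 the counts were 0 of 4 members and 394 genes (3.26%). The 12093 genes include *Ncam1*, the targeted gene, with mean normalized counts of 62.3 in WT PCs and 0.709 in KO PCs. The adjusted test in PCs thus missed the targeted gene itself, and its lack of calls says little about the members. In VMs 0 of 4 members passed, where 0.0371% of 10780 genes did, and over both cell types 0 of 4, where 0.0260% of 11533 genes did. At an unadjusted p under 0.05 those counts were 0 of 4 against 5.14% and 0 of 4 against 4.75%, and DESeq2 called no member in any of the 3 comparisons. Of the members, 0 of 4 had groups that did not overlap in PCs, against 9.49% of genes, and 1 of 4 in VMs, against 9.62%.

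That member was *Atp1b3*, whose 3 KO VM libraries all exceeded the 3 WT VM libraries. Its level in KO was 1.17-fold that in WT VMs, with a 95% interval from 0.902 to 1.53 (log2 difference 0.23 ± 0.18, edgeR unadjusted p = 0.216, adjusted p = 0.973). The exact permutation test gave p = 0.1, which is the smallest p that 3 libraries against 3 allow. In PCs the log2 difference was 0.36 ± 0.36, and over both cell types 0.30 ± 0.20 with a 95% interval from 0.918-fold to 1.65-fold.

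The estimate for *Fxyd1* in KO over both cell types was 1.22-fold its WT level, with an interval that included no change (0.939 to 1.60, edgeR unadjusted p = 0.126, adjusted p = 0.926). Its log2 differences were 0.32 ± 0.29 in PCs and 0.25 ± 0.19 in VMs. The VM value rested on the first KO VM library (611), without which it was -0.033. *Atp1b2* gave -0.25 ± 0.54 in PCs and -0.14 ± 0.40 in VMs, with 95% intervals from 0.366-fold to 1.92-fold in PCs and from 0.503-fold to 1.63-fold in VMs. The PC value was -0.79 without the third KO PC library and -0.027 without the second.

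*Atp1b1* had estimates of opposite sign in the 2 cell types, -0.27 ± 0.22 in PCs and 0.16 ± 0.14 in VMs. The PC value was -0.17 without the second WT PC library and -0.40 without the third. The VM value was 0.034 without the first KO VM library and 0.26 without the second. The difference between the PC and VM effects was itself tested as the interaction of genotype and cell type. It was -0.44 ± 0.25 on the log2 scale (95% interval -0.97 to 0.08, edgeR unadjusted p = 0.092, adjusted p = 0.999), in a comparison in which 0% of genes passed the adjustment and 2.95% had an unadjusted p under 0.05. For the other 3 members the interaction estimates ran from -0.12 to 0.12, with SEs from 0.36 to 0.63, and changed sign when single libraries were left out.

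Ratios within a library do not depend on its normalization, and ratios of pump genes per kilobase were compared in 66 exact permutation tests, of which those between the members are given here. None of them passed adjustment over the 66, the smallest adjusted p being 0.388. *Fxyd1* per *Atp1b2* was 23.2, 16.2 and 21.4 in WT PCs and 38.96, 37.50 and 24.68 in KO PCs. WT VMs had ratios of 28.7, 46.3 and 25.6, and KO VMs of 48.8, 37.7 and 36.1. The KO libraries lay above the WT libraries in PCs without overlap, while in VMs the genotypes overlapped.

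Over both cell types the log2 difference between KO and WT in *Fxyd1* per *Atp1b2* was 0.52 (1.43-fold, exact permutation p = 0.035 unadjusted, 0.388 adjusted), and between 0.44 and 0.65 when single libraries were left out. Between PCs and VMs over both genotypes it was -0.49 (0.710-fold, exact permutation p = 0.025 unadjusted, 0.388 adjusted). *Fxyd1* per *Atp1b1* and *Fxyd1* per *Atp1b3* gave 1.26-fold and 0.981-fold between KO and WT (exact permutation p = 0.14 and 0.855).

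The ratio of *Atp1b2* to *Atp1b1* was 0.0193, 0.0140 and 0.0233 in WT PCs, 0.0155, 0.0119 and 0.0271 in KO PCs, 0.0135, 0.00939 and 0.0157 in WT VMs and 0.0104, 0.00996 and 0.0111 in KO VMs. KO PCs all lay above KO VMs (exact permutation p = 0.1, the smallest possible), and the WT cell types overlapped. In *Atp1b2* per *Atp1b3*, WT PCs all lay above WT VMs (exact permutation p = 0.1), and the KO cell types overlapped. Between cell types, *Atp1b2* per *Atp1b1* in PCs was 1.55-fold its value in VMs over both genotypes (exact permutation p = 0.015 unadjusted, 0.388 adjusted) and *Atp1b2* per *Atp1b3* 1.59-fold (p = 0.04 by the exact permutation test, 0.388 adjusted). Among the β genes, *Atp1b3* per *Atp1b1* gave 0.972-fold between PCs and VMs and 1.28-fold between KO and WT (exact permutation p = 0.87 and 0.215).

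**Figure D4:**
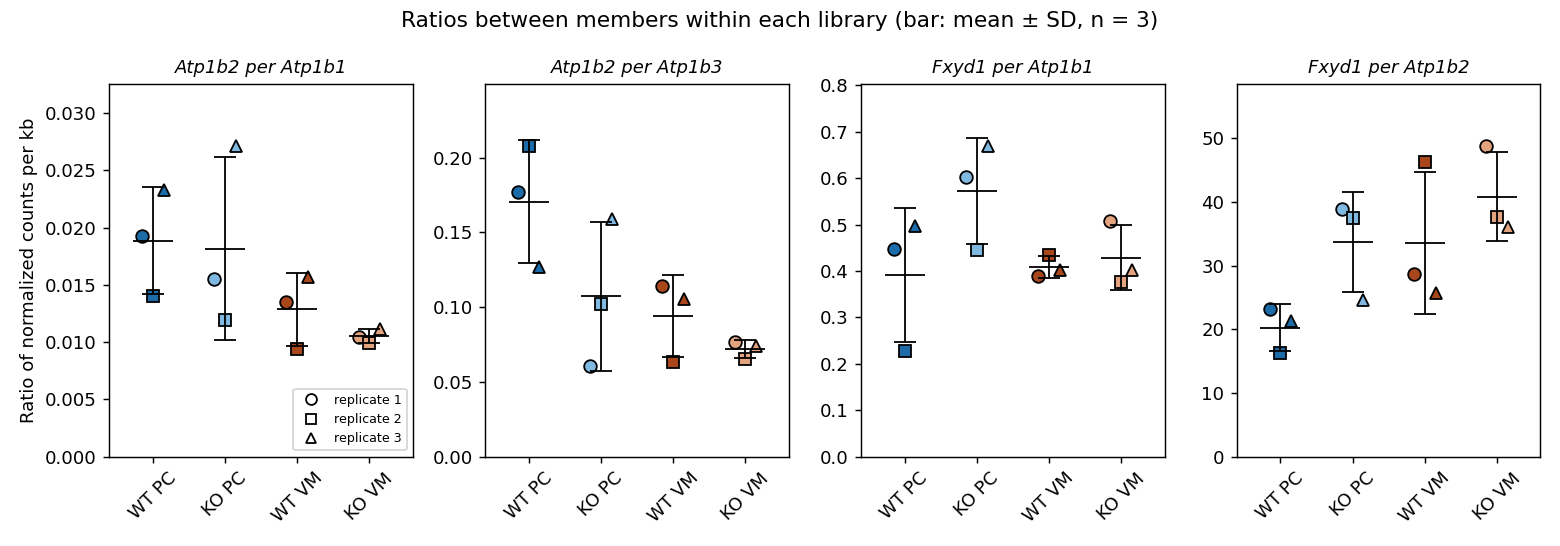
Ratios between the per-kilobase normalized counts of 2 members within each library, 1 pair in each panel, with the mean and SD of 3 libraries per group (linear axes from 0). For *Fxyd1* per *Atp1b2* the KO points lie above the WT points within PCs and overlap them within VMs, and for *Atp1b2* per *Atp1b1* the KO PC points lie above the KO VM points.

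Other genes of the pump family include the remaining FXYD proteins, the proton pumps of stomach and colon and the NKAIN proteins that bind β1. Of 18 such genes 5 passed the filter on low counts over both genotypes, and none of those tested was called in any comparison by edgeR's test. *Atp1b4*, *Atp12a* and *Fxyd7* had no counts in any library, which allows up to 3 counts in each.

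*Fxyd5* (dysadherin), a FXYD protein known from epithelia and other non-muscle cells, had a log2 difference between PCs and VMs of 2.34 ± 0.71 (edgeR unadjusted p = 0.00468, adjusted p = 0.131). Its normalized counts were 25.5, 77.4 and 8.28 in WT PCs, 48.4, 11.1 and 3.68 in KO PCs, 11.4, 8.30 and 4.89 in WT VMs, and 1.56, 1.42 and 6.38 in KO VMs. The groups overlapped, and the highest value was that of the second WT PC library. *Fxyd5* passed the adjustment under DESeq2 (adjusted p = 0.019) and in edgeR when weakly counted genes were kept (adjusted p = 0.00275), which were 2 of 19 alternatives, with adjusted p up to 0.467 in the others. Its log2 difference was 1.15 under voom, and ran from 1.61 without the first KO PC library to 2.87 without the third KO VM library. *Fxyd6* (phosphohippolin) gave 0.43 ± 0.34 between PCs and VMs, and *Nkain1* -1.39 ± 0.67 on at most 31 raw counts. In KO alone, *Nkain1* gave -1.97 ± 0.92 between the cell types (edgeR unadjusted p = 0.048, adjusted p = 0.506).

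Among 14 genes for sodium handling and for anchoring the pump, 11 were tested. Between PCs and VMs over both genotypes 3 of them were higher and 8 lower, with a median of -0.15, and 1 passed the adjustment. That gene was *Cav1*, which encodes caveolin 1, a coat protein of caveolae that is abundant in endothelium. *Cav1* had 249 to 374 normalized counts in WT PCs, 263 to 492 in KO PCs, 89.2 to 174 in WT VMs and 21.8 to 109 in KO VMs, without overlap between the cell types. Its log2 difference was 1.72 ± 0.30 (edgeR adjusted p = 0.00842), 2.21 ± 0.37 in KO alone (adjusted p = 0.0113) and 1.19 in WT alone, which did not pass. It moved with the endothelial marker sums given above, and their part in it was not tested.

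*Slc4a4* and *Slc4a7*, which encode sodium bicarbonate cotransporters, gave log2 differences between PCs and VMs of -0.43 ± 0.17 and -0.49 ± 0.23. *Cdh2*, the N-cadherin of the junctions between cardiomyocytes, gave -0.25 ± 0.10. These 3 had unadjusted p-values of 0.0267, 0.0449 and 0.029 by edgeR's test and did not pass the adjustment. *Slc8a1*, the sodium calcium exchanger, gave -0.29 ± 0.15, *Ank2*, the ankyrin that anchors pump and exchanger, -0.15 ± 0.12, and *Sptbn1*, its spectrin partner, -0.13 ± 0.15.

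*Cav3*, the muscle form of caveolin, had 171, 204 and 140 normalized counts in WT PCs and 112, 84.9 and 81.8 in KO PCs. The KO PC libraries all lay below the WT PC libraries, with a log2 difference of -0.88 ± 0.32 (edgeR unadjusted p = 0.0184, adjusted p = 0.995). In VMs the groups overlapped, and over both cell types the difference was -0.48 ± 0.19 (adjusted p = 0.926). *Cdh2* gave 0.25 ± 0.10 in KO against WT over both cell types (edgeR unadjusted p = 0.0267, adjusted p = 0.926). Over this list 4 genes were higher and 7 lower in KO, with a median of -0.02, the same to 2 decimals as that of all genes.

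Phospholemman is phosphorylated by the protein kinases A and C and dephosphorylated by protein phosphatase 1. Of 12 genes of these enzymes, their regulators and the kinase *Dmpk*, 11 were tested over both genotypes and none was called by edgeR's test. Between PCs and VMs 3 were higher and 8 lower, with a median of -0.09, and *Prkar1a*, a regulatory subunit of protein kinase A, had an unadjusted p under 0.05 (log2 difference -0.28 ± 0.12, edgeR adjusted p = 0.398). Its difference was -0.49 in WT alone, and in VMs -0.28 between KO and WT. Between KO and WT 8 were higher and 3 lower, with a median of 0.04. *Prkacb*, a catalytic subunit of protein kinase A, gave 0.37 ± 0.16 (edgeR unadjusted p = 0.0327, adjusted p = 0.926). *Ppp1cb*, the most highly counted gene of the list, gave -0.19 ± 0.12 between cell types and -0.05 ± 0.12 between genotypes.

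The genes whose pattern was most like that of each member were found by Pearson's r of log2(normalized count + 2) over the 12 libraries, among 8028 other protein-coding genes with a mean normalized count above 20. Values of one library share its depth and normalization, so r is given as a description only. *Atp1b2* was most like *Gja5* (r = 0.94), which encodes connexin 40, a gap junction protein of the conduction system, followed by *Cdk14*, *Pdlim3*, *Sbk3* and *Fam49a* (0.88 to 0.87). With *Gja5*, r was 0.94 within the 6 PC libraries and 0.83 within the 6 VM libraries. *Gja5* had 57.2, 49.4 and 93.6 normalized counts in WT PCs and 25.2, 5.57 and 102 in KO PCs, against 1.42 to 8.97 in VMs. Both genes were thus highest in the third KO PC library and low in the second. Counts of *Gja5* in VMs rested on 1 to 11 reads, and its exons overlap those of *Gpr89*.

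**Figure D5:**
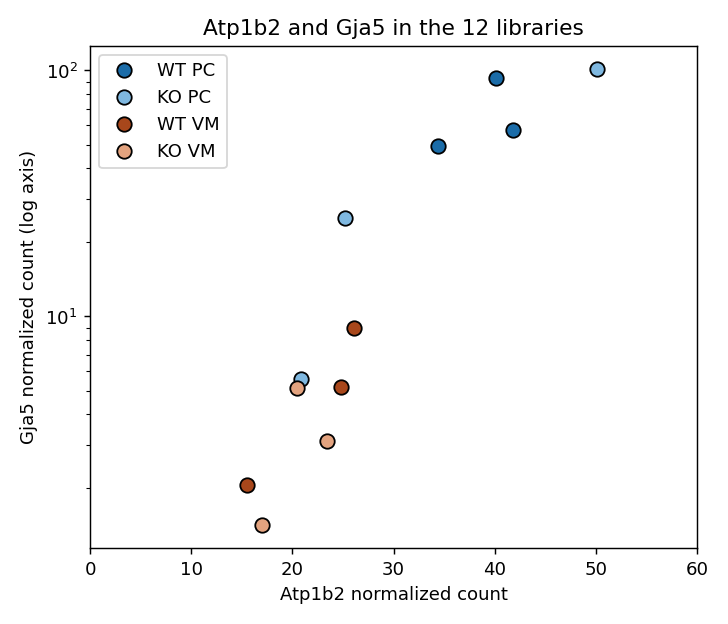
Normalized counts of *Atp1b2* (linear axis) and *Gja5* (log axis), 1 point per library, colored by group. The 3 WT PC libraries and the third KO PC library lie at the upper right, with *Atp1b2* from 34.4 to 50.1, and the second KO PC library (20.9) lies among the VMs.

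The genes most like *Atp1b1* were *Dap3* (r = 0.95), *Plekhb2*, *Mief2*, *Gbf1* and *Slc25a26* (0.87). Those most like *Fxyd1* were *Ergic3* (0.93), *Ints1*, *Smim14*, *Plekha6* and *Hnrnpul1* (0.89), and those most like *Atp1b3* were *Afg3l1* (0.88), *Epg5*, *Exd2*, *Borcs8* and *Naaa* (0.86). For *Atp1b3* the likeness to *Afg3l1* was mainly within PCs, with r = 0.95 over their 6 libraries and 0.46 over the 6 VM libraries. Among the members themselves, *Atp1b3* and *Fxyd1* had r = 0.67 and *Atp1b1* and *Atp1b3* r = -0.46. *Atp1b1* and *Fxyd1* were nearly unrelated over the 12 libraries (r = 0.05). No list of the 5 most alike genes contained another member.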

How the data were processed

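The values deposited were counts, the number of read pairs that fell on each gene, with 1 file for each library and no scaling. According to the labels the authors aligned reads to mm10 with STAR 2.5.0c, guided by the GRCm38.74 annotation, and counted them with HTSeq 0.6.0. The strand setting is not given in the sources used here. Read pairs outside genes were excluded from tests and library sizes. Symbols, positions and merged exon lengths came from GENCODE release 21 for mouse on GRCm38, which lacks 468 of the identifiers (0.00659% of counts). Depth ran from 13883427 to 42505705 counts per library, so genes with few counts, such as *Atp1b2*, were measured least precisely.

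Groups followed genotype and cell type in the sample titles. Analyses used R 4.3.3. Each comparison of 2 groups was fitted to their 6 libraries with the quasi-likelihood test of edgeR 4.0.16 after TMM normalization. Genes entered with a mean normalized count over 5, p-values were adjusted by Benjamini-Hochberg across every gene tested, and the threshold was 0.05. Comparisons over both genotypes or both cell types, and the interaction, used all 12 libraries. Printed normalized counts come from TMM over the 12 libraries. Exact permutation tests were two-sided and took mean log2(normalized count + 2) for single genes, or the mean log2 ratio per kilobase, over 20 relabellings of 3 against 3 or 400 within strata. Alternatives were DESeq2 1.42.0, its size factors in edgeR, no filter, voom with quality weights (limma 3.58.1), omission of mitochondrial genes, thinned counts, a replicate block, a single fit of the 12 libraries and omission of each library. Alternatives for ratios and for genes other than the members were chosen after seeing the data. The steps were tested on simulated data.

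The members and gene lists were chosen with earlier results of these data known. Genes named are the members, genes of the fixed lists with an unadjusted p under 0.05 or the highest counts, the 5 genes most like each member, *Ncam1* and *Cntn2*. *Nme7*, *Gpr89*, the family genes without counts (*Atp1b4*, *Atp12a*, *Fxyd7*) and single glial markers from the marker lists were added after their values were seen. Some genes of the lists are not reported here. No sequences are printed.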

Additional observations from a re-analysis of the deposited data

How the results depend on the processing

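No member was called in any of 452 alternative fits, and 19 of the 28 member log2 fold changes kept their direction in all of them. Of the differences that changed sign, *Fxyd1* in KO VM against WT VM had an unadjusted p under 0.05 in 1 of 14 alternatives (0.44 without the second KO VM library, edgeR unadjusted p = 0.0391, adjusted p = 0.732), and the others in none. For *Atp1b3* in WT PC against WT VM the value was -0.085 with thinned counts and -0.047 with the replicate block. Over both genotypes it was -0.017 with thinned counts. The interactions gave -0.19 for *Atp1b3* under voom and 0.0027 for *Atp1b2* with thinned counts.

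With single libraries left out, *Atp1b3* ran from -0.25 to 0.20 in WT PC against WT VM, from -0.091 to 0.37 in KO, and from -0.034 to 0.21 over both genotypes. In KO VM against WT VM, *Fxyd1* ran from -0.033 to 0.44 and *Atp1b2* from -0.32 to 0.0088. *Atp1b1* ran from -0.13 to 0.0039 in KO against WT over both cell types. The interaction ran from -0.64 to 0.11 for *Atp1b2*, from -0.13 to 0.37 for *Atp1b3* and from -0.13 to 0.35 for *Fxyd1*. Outside the interactions, the libraries whose omission turned the sign of a member were the third WT PC and first WT VM for *Atp1b3* in WT, the first KO PC for *Atp1b3* in KO, the first KO PC and the third WT PC over both genotypes, the first KO VM for *Fxyd1*, the third WT VM for *Atp1b2* and the second WT PC for *Atp1b1*. *Atp1b2* between PCs and VMs over both genotypes stayed between 0.47 and 0.87, with adjusted p from 0.166 to 0.678 over all its alternatives, and had an unadjusted p under 0.05 in 12 of 19. *Cav1* in KO lost its call under DESeq2 (adjusted p = 0.0616) and in the single fit of 12 libraries (0.0869). The cause of these changes was not tested.

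Counts of genes at adjusted p under 0.05 moved with the processing. In WT PC against WT VM 13 genes became between 1 and 297, in KO 94 became between 1 and 326, and over both genotypes 171 became between 56 and 561. KO PC against WT PC gave 0 as reported and up to 132, KO VM against WT VM 4 and between 1 and 47, KO against WT over both cell types 3 and up to 89, and the interaction 0 and up to 19. Same-numbered libraries correlated, after centring each group, by 0.205, 0.081 and 0.141 between WT PCs and WT VMs, where each correlated best with its own number, as a hint from the data, and by -0.016, 0.120 and 0.016 in KO. These values do not settle whether the numbers pair the samples. The labels do not say that they mark hearts, so the reported fits left the samples unpaired and ignored any pairing present. With the replicate block, *Atp1b2* gave 0.73 between PCs and VMs over both genotypes (edgeR adjusted p = 0.403). Low counts limit the precision of *Atp1b2*, *Fxyd5*, *Nkain1* and, in VMs, *Gja5*.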
